A study of Homo sapiens with 3 samples.

Results

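Small nuclear RNA (snRNA) genes were examined for binding sites of SOX4, a high-mobility-group transcription factor, in BT549, a widely used line of human breast tumour cells. The members are the genes that the RefSeq table of GRCh38.p14 types as snRNA on chromosomes 1 to 22 and X. That table lists 154 such genes, and 149 of them have a position on an assembled chromosome, of 58419 genes of all types placed there. The remaining 5 have positions on scaffolds or alternate loci and are not counted below. SOX4 chromatin immunoprecipitation with sequencing (ChIP-seq) was done in 3 libraries of 1 group, all BT549 cells labelled passage 5 and UT, a tag the labels do not spell out, cross-linked with DSG and formaldehyde and pulled down with the same Abcam antibody against SOX4, with paired reads of 36 bp. Each library came as its own list of summits, the single bases where the peak caller placed the centre of a peak, each carrying a score that the authors gave as −log10 of either a p-value or a q-value. The lists held 1368, 1713 and 4430 summits in replicates 1, 2 and 3, so replicate 3 stands apart by its length and results are given with and without it. No control or second condition was analysed here. Nothing in the labels ties the libraries to separate cultures, so the spread between them may be technical. Read depth is unknown, and intervals below are exact 95% binomial intervals that cover counting error only.

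The snRNAs are short RNAs that work with proteins in the nucleus. U1 recognises the start of introns and U2 their branch point, and U4, U5 and U6 join U1 and U2 to form the main spliceosome. U11, U12, U4atac and U6atac serve the minor spliceosome. U7 guides the processing of histone messenger RNA ends, and 7SK holds back the elongation factor P-TEFb. Genes of the U1, U2, U4, U4atac, U5, U7, U11 and U12 families are read by RNA polymerase II. Those of U6, U6atac and 7SK are read by RNA polymerase III. U1 and U2 genes occur in many near-identical copies.

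SOX4 summits lay at 28 of the 149 snRNA genes, and 23 of these belonged to the U1 family or to an array of genes around RNU2-1. A gene was counted when a summit lay within 1 kb of either of its ends. The share was 18.8% (12.9 to 26.0%) in any library, against 7.41% of all genes in the table. Summits of at least 2 libraries lay at 14 genes (9.40%, 5.23 to 15.3%), against 1.67% of all genes. All 3 libraries had a summit at 9 genes (6.04%, 2.80 to 11.2%), against 0.500% of all genes. By library, replicate 1 had summits at 14 snRNA genes (9.40%), replicate 2 at 9 (6.04%) and replicate 3 at 28 (18.8%), and the mean share was 11.4% ± 6.61 (SD, n = 3 libraries). The shares of all genes were 1.56%, 1.47% and 6.55% in the same lists. Replicate 3 thus held a summit at each of the 28 genes, and 14 of them had a summit in that library alone. Without replicate 3, 14 snRNA genes (9.40%) had a summit of any library and 9 (6.04%) had summits of both remaining libraries. The matching shares over every gene in the table were 2.42% and 0.613%. No test of these shares was made, because family members share sequence and neighbours share a locus, so the genes are not independent of each other. How reads that match several copies were treated is not given in the sources used here.

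**Figure D1:**
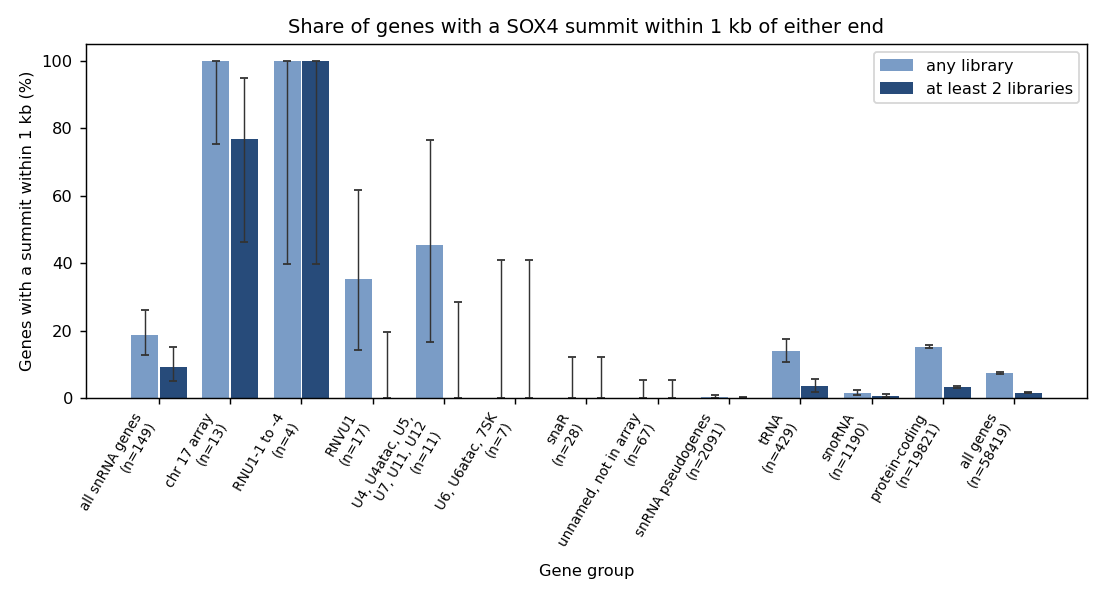
Percent of genes with a SOX4 summit within 1 kb of either gene end, by gene group (horizontal axis), in any library (light bars) and in at least 2 libraries (dark bars), with exact 95% binomial intervals. The array of chromosome 17 and RNU1-1 to RNU1-4 reach 100% in any library, against 7.41% of all genes at the right, and the U6, U6atac and 7SK group, snaR genes and unnamed genes outside the array are at 0.

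Outside the array, the only snRNA genes with summits of more than 1 library were the 4 U1 genes of chromosome 1, RNU1-1 to RNU1-4, which encode the RNA that pairs with the start of introns. They spread over 382 kb (chr1:16514122-16896143, each 164 bp long), and all 4 had a summit in all 3 libraries. RNU1-1 had summits at 48, 35 and 40 bp from its ends in replicates 1, 2 and 3, scoring 6.92, 9.46 and 35.8. RNU1-3 had them at 487, 51 and 67 bp, scoring 8.48, 13.1 and 42.1. Replicate 1 was the library farthest from this gene, on its other side. RNU1-4 had summits at 73, 59 and 82 bp, scoring 13.9, 5.22 and 42.3, and a long non-coding RNA gene, LOC124903859, ends 31 bp from it. RNU1-2 had summits at 7, 65 and 14 bp, scoring 13.2, 10.5 and 41.8. The scores of replicate 3 rank these 4 sites between 16 and 25 of its 4430 summits. In replicate 1 they ranked between 189 and 534 of 1368 and in replicate 2 between 185 and 1019 of 1713, so the high rank was seen in 1 library only. No protein-coding gene ended within 5 kb of any of the 4, the nearest being LOC124903857 at 5558 bp from RNU1-3. Replicate 2 had a second summit beside RNU1-1, RNU1-2 and RNU1-3, at 464, 389 and 461 bp.

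The variant U1 genes, named RNVU1, lie farther along chromosome 1 between positions 120850819 and 149637013, and encode U1-like RNAs. Of 17 such genes, 6 had a summit (35.3%, 14.2 to 61.7%), every one in replicate 3 and none in the other libraries. RNVU1-6 had the closest, at 3 bp with a score of 11.2. RNVU1-19 had one at 13 bp with a score of 13.4, the highest of the 6. RNVU1-14 and RNVU1-7 had summits at 29 and 30 bp, scoring 6.25 and 4.79. RNVU1-31 and RNVU1-30 had them at 126 and 137 bp, scoring 3.92 and 7.42. Replicate 3 scored these 6 genes below each of RNU1-1 to RNU1-4. In replicates 1 and 2 the nearest summits to the 6 genes were 75.9 kb or more away. Together the U1 family had 10 of 21 genes with a summit of any library (47.6%, 25.7 to 70.2%) and 4 of 21 without replicate 3.

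The U2 locus held the largest group of sites. U2 RNA pairs with the branch point of introns, and the table places RNU2-1 on chromosome 17 with 12 unnamed snRNA genes after it, over 66.4 kb (chr17:43233790-43300231). The 13 genes are 188 to 192 bp long and a median of 5.32 kb apart. The table gives no family for the 12 unnamed genes, so they are called by their numbers here. Replicate 3 placed a summit at all 13, replicate 1 at 10 and replicate 2 at 5, and 10 genes had summits of at least 2 libraries. Between 1 kb before the first and 1 kb after the last gene replicates 1, 2 and 3 had 10, 5 and 14 summits, and each of them lay within 1 kb of a gene of the array. Of these, 8, 5 and 13 lay within 200 bp of a gene end. The nearest end of a protein-coding gene, CCDC200, was 2.52 kb from RNU2-1 and farther from the others.

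**Figure D2:**
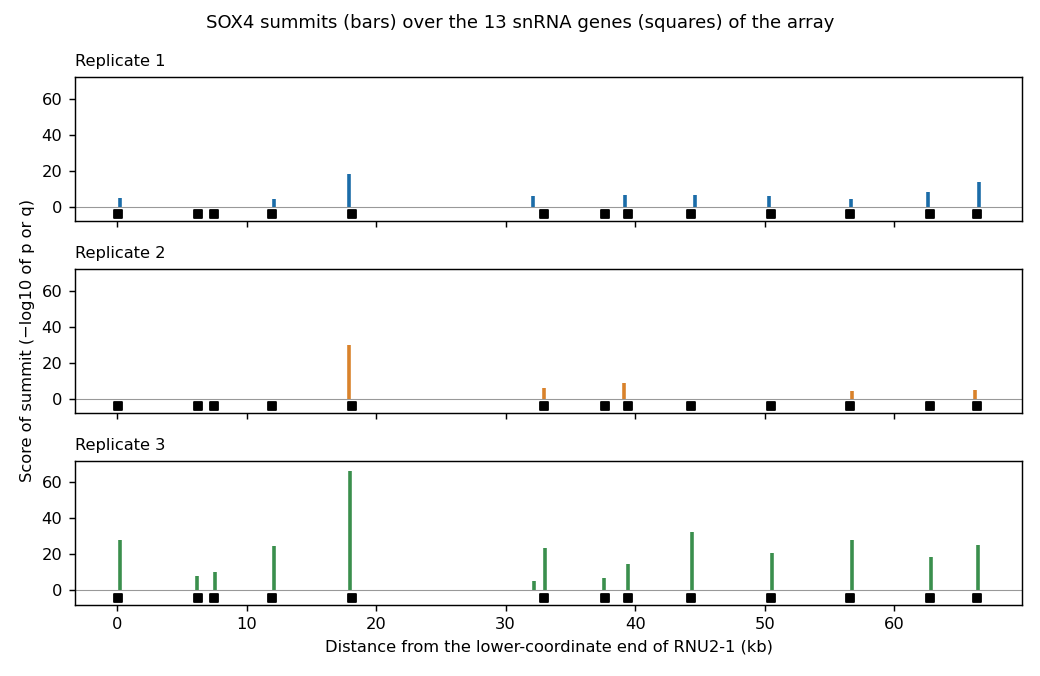
Summits over the array on chromosome 17, with distance from the lower-coordinate end of RNU2-1 in kb on the horizontal axis, the authors' score on the vertical axis, 1 panel per library, and the 13 genes as black squares. Each bar stands within 1 kb of a gene, and the tallest bar of every library is at the fifth gene, LOC124904138.

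RNU2-1 had a summit at 77 bp in replicate 1 (score 4.64) and at 36 bp in replicate 3 (score 28.2), and the nearest of replicate 2 was 17.7 kb away. LOC124904138 carried the highest score of the array in every library. Its summits lay at 114, 121 and 50 bp in replicates 1, 2 and 3, scoring 18.3, 29.9 and 66.3, and the last ranked 7 of 4430. LOC124904144, the gene at the far end, had them at 119, 49 and 9 bp, scoring 13.9, 4.89 and 24.9. LOC124904145 had them at 16, 75 and 5 bp (scores 4.36, 4.28 and 28.1). Within their lists these ranked 1119 of 1368, 1355 of 1713 and 40 of 4430. Not every array summit of replicates 1 and 2 ranked so low, those of LOC124904138 being 116 and 69. LOC124904146 had summits at 136, 186 and 52 bp (scores 6.60, 8.55 and 14.9). LOC124904139 had them at 733, 48 and 5 bp (scores 5.94, 5.78 and 23.4), and its 733 bp was the counted distance nearest to the limit of 1 kb. These 4 genes and LOC124904138 are the 5 of the array with a summit in all 3 libraries.

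A further 4 unnamed genes of the array had summits in replicates 1 and 3 and none of replicate 2 within 1 kb. LOC124904142 had them at 5 and 10 bp (scores 5.75 and 20.8), and LOC124904143 at 20 and 33 bp (scores 7.98 and 18.4). LOC124904137 had them at 49 and 36 bp (scores 4.45 and 24.7), and LOC124904141 at 262 and 12 bp (scores 6.33 and 32.7). LOC124904135, LOC124904136 and LOC124904140 had a summit in replicate 3 alone, at 8, 46 and 43 bp, scoring 7.85, 10.3 and 7.10. Over the array the scores ran from 5.17 to 66.3 in replicate 3 (median 22.1), from 4.36 to 18.3 in replicate 1 (median 6.14) and from 4.28 to 29.9 in replicate 2 (median 5.78). The medians of the whole lists were 5.58, 6.12 and 5.57 in replicates 3, 1 and 2. The array therefore stood above its list in replicate 3 and near the middle of the list in the other libraries.

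The U2 genes elsewhere had no summit within 1 kb. RNU2-2, inside WDR74 on chromosome 11, was 36.0 kb from the nearest summit of replicate 3 and over 1 Mb from those of replicates 1 and 2. RNU2-63P on chromosome 2 was over 1 Mb from a summit in every library. The next snRNA gene beyond the array, LOC124904147, starts 67.7 kb after it and was 6.81 kb from the nearest summit, of replicate 3.

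**Figure D3:**
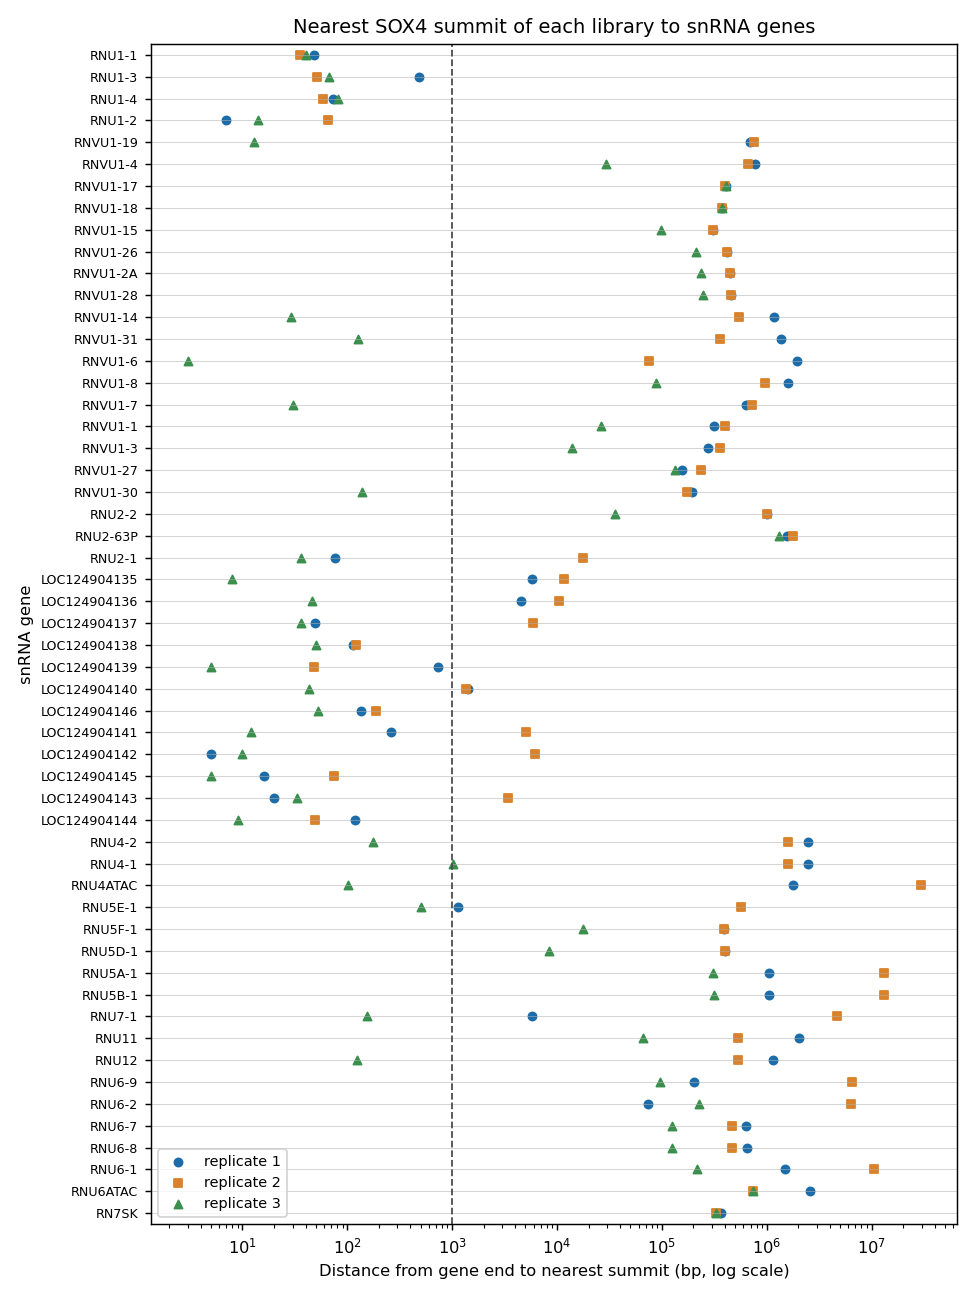
Distance in bp from the gene end to the nearest summit (log scale), for the genes with a family name other than snaR and for the array, with 1 symbol per library and a dashed line at 1 kb. All 3 libraries lie left of the line at RNU1-1 to RNU1-4 and at 5 genes of the array, and the genes of U6, U6atac and 7SK at the bottom have no symbol left of it.

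The summits sat on or beside the genes rather than anywhere in the 1 kb window. Over the 28 genes and 3 libraries there were 51 pairs of a gene and a library with a summit, and the nearest summit lay within 200 bp of a gene end in 47 of them and within 50 bp in 27. It fell inside the gene in 15 pairs, below its lower coordinate in 14 and above its higher coordinate in 22. Counted by gene, 27 of the 28 had a summit of any library within 200 bp. Among all genes the share with a summit was 3.59% within 200 bp and 7.41% within 1 kb. Many of the pairs come from similar copies of the array and the U1 family, so they are not independent. In replicate 3 the nearest summit lay on the higher-coordinate side of the gene midpoint at 10 of the 13 array genes, with a median offset of 83 bp. In replicate 1 it did so at 5 of 10 array genes and in replicate 2 at 2 of 5, so the libraries did not share a side. At RNU1-4 all 3 libraries were below the gene, at -154.5, -140.5 and -163.5 bp from the midpoint. At RNU1-1 all 3 were above the midpoint, at 129.5, 46.5 and 121.5 bp. The table used gives no strand for snRNA genes, so upstream and downstream were not told apart.

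**Figure D4:**
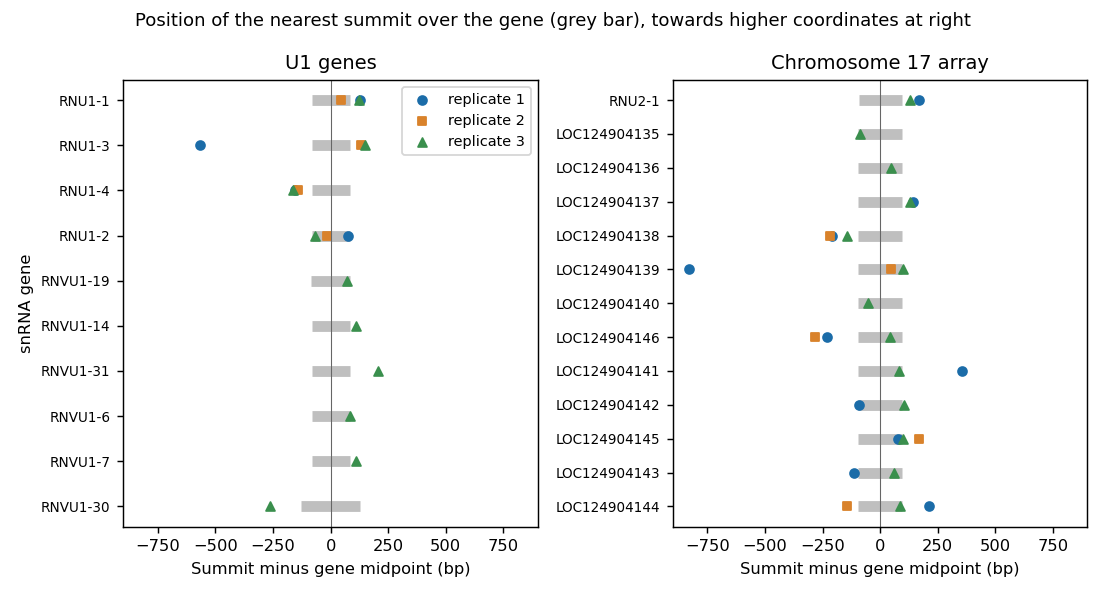
Position of the nearest summit relative to the gene midpoint in bp (horizontal axis, higher coordinates to the right) for the U1 genes (left) and the array genes (right) with a summit within 1 kb, with the gene drawn as a grey bar and 1 symbol per library. Most symbols touch or adjoin the bar, and replicate 1 lies farthest out at RNU1-3 and LOC124904139.

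The remaining genes of the main spliceosome had single sites or none. U4 RNA pairs with U6 before splicing begins. RNU4-2 had a summit in replicate 3 at 174 bp (score 7.12), and those of replicates 1 and 2 were over 1 Mb away. RNU4-1, the neighbouring copy, was 1016 bp from the same summit and so lay just outside the limit of 1 kb. Of the 5 U5 genes, whose RNA holds the exons at the centre of the spliceosome, 1 had a summit: RNU5E-1 at 507 bp in replicate 3 (score 11.8). Of the 28 genes, it had the largest distance to its nearest summit of any library. Replicate 1 had a summit at 1147 bp from RNU5E-1 and the nearest of replicate 2 was 570 kb away. RNU5D-1 and RNU5F-1 were 8.41 and 17.7 kb from the nearest summit, and RNU5A-1 and RNU5B-1 were 306 and 315 kb from one, all of replicate 3.

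None of the U6, U6atac and 7SK genes, all read by RNA polymerase III, had a summit. U6 RNA forms the catalytic core of the spliceosome, and its 5 genes were 73.9 to 215 kb from the nearest summit of any library, RNU6-2 being the closest and RNU6-1 the farthest. RNU6-7 and RNU6-8, a pair on chromosome 14, were 124 and 126 kb away, and RNU6-9 was 95.9 kb away. RN7SK was 364, 331 and 331 kb from the nearest summits of replicates 1, 2 and 3, and RNU6ATAC was 2564, 732 and 747 kb from them. The group had 0 of 7 genes near a summit, which allows a share of up to 41.0%, so a share below that of all genes was not detectable with so few. The named genes of the U1, U2, U4, U4atac, U5, U7, U11 and U12 families, read by RNA polymerase II, had 16 of 35 (45.7%, 28.8 to 63.4%), 5 of which had at least 2 libraries. All 16 had a summit in replicate 3, against 5 in replicate 1 and 4 in replicate 2, and 10 of the 16 were U1 genes. Neither set includes the 28 snaR genes or the 79 genes without a family name. The difference between these sets was not tested.

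Among genes of the minor spliceosome, RNU4ATAC and RNU12 had a replicate 3 summit and RNU11 did not. RNU4ATAC lies inside CLASP1 on chromosome 2, and its summit was at 101 bp (score 6.66), with a second at 386 bp (score 4.01). RNU12 on chromosome 22 had one at 125 bp (score 4.88), below the median score of that list, and the coding gene POLDIP3 ends 361 bp from it. RNU11 on chromosome 1 was 66.5 kb from the nearest summit, and TAF12 ends 331 bp from the gene. RNU7-1, the U7 gene, had a replicate 3 summit at 155 bp (score 5.55), and the nearest of replicate 1 was 5.73 kb away. Outside the U1 family and the array, 5 of 115 snRNA genes had a summit (4.35%, 1.43 to 9.85%), and all 5 sites came from replicate 3 alone. The interval includes the shares of all genes, 7.41% in any library and 6.55% in replicate 3. They are RNU4-2, RNU4ATAC, RNU5E-1, RNU7-1 and RNU12.

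At RNU7-1 and RNU4-2 the summit also fell in the promoter window of a coding gene, so the 2 kinds of gene cannot be told apart there. The windows are shown because they hold the summit base. They come from RefSeq (GRCh38.p14) and run from 250 bases before to 50 after a start of the coding gene, on its own strand. They are printed 5′ to 3′ with the 11 bases centred on a summit in capitals. For both coding genes that start is not the outer end of the gene's listed span. RNU7-1 lies inside the span of C12orf57 and RNU4-1 inside that of SIRT4. An end of SIRT4 lies 21 bp from an end of RNU4-2. The table of windows matched 0 of the 149 snRNA genes. The window of C12orf57 (chr12:6943772-6944071, plus strand) spans the whole of RNU7-1 (chr12:6943816-6943878), and the replicate 3 summit is its base 262.
C12orf57: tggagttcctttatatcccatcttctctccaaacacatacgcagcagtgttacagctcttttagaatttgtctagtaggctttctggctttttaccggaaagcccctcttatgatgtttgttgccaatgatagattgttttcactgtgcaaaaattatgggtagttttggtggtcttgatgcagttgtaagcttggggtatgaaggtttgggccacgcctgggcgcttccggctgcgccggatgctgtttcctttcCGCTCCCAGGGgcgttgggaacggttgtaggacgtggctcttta
The window of SIRT4 (chr12:120291939-120292238, plus strand) begins beyond the higher end of RNU4-2 (chr12:120291759-120291903), and the replicate 3 summit is its base 139, between RNU4-2 and RNU4-1.
SIRT4: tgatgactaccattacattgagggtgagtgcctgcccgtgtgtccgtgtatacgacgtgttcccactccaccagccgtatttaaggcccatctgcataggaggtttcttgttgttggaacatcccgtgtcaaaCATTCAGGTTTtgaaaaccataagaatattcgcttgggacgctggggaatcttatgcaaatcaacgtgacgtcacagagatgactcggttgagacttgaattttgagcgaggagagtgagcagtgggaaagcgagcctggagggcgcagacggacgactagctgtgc

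Exact matches on either strand were sought for the SOX core sequences AACAAT and ACAAAG, the octamer ATGCAAAT known from snRNA enhancers, TATAA, and the proximal sequence element of snRNA promoters, the last with some bases left free. The C12orf57 window held AACAAT once and TATAA once, both read on the reverse strand, at bases 134 and 11. The SIRT4 window held the octamer once, at base 187, and no SOX core. In all 35116 windows of the table, AACAAT was found in 10.1%, ACAAAG in 16.1%, the octamer in 1.77%, TATAA in 20.4% and the proximal element in 0.0342%. A match describes the letters and does not show that a protein binds them.

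Most snRNA genes without a family name, and all snaR genes, were far from SOX4 summits. The snaR genes encode small RNAs of primates, and 26 of the 28 lie on chromosome 19. None had a summit within 1 kb (0 of 28, which allows up to 12.3%), and the nearest was 30.0 kb away, at SNAR-E. Outside the array, 67 genes have only a number as a name, and 0 of 67 had a summit (up to 5.36%), with a median distance of 112 kb to the nearest of any library. In all, 121 of the 149 genes had no summit within 1 kb, at 1.016 kb to 4.50 Mb from the nearest one, and 7 of these were within 20 kb.

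Of the 17 clustered snRNA genes with a summit, 13 belonged to the array. With a gap of 100 kb, the order of clustered and single genes turned round without it. A gene was called clustered when a gap of at most 100 kb separated it from another snRNA gene. Of 61 clustered genes, 17 had a summit of any library (27.9%, 17.1 to 40.8%), against 11 of 88 single genes (12.5%, 6.41 to 21.3%). With at least 2 libraries the counts were 12 clustered and 2 single genes, RNU1-1 and RNU1-2. Without the array, 4 of 48 clustered genes had a summit (8.33%, 2.32 to 19.98%), which is below the share of single genes. That order rests on the gap chosen, and the classes were not recounted with a wider one. RNU1-1 and RNU1-2 count as single here, though RNU1-1 to RNU1-4 all lie within 382 kb. With the snaR genes left out too, the counts were 4 of 24 clustered genes (16.7%, 4.74 to 37.4%) and 11 of 84 single genes (13.1%, 6.72 to 22.2%). The intervals for any library overlap in each of these comparisons. With at least 2 libraries they do not (10.6 to 31.8% clustered, 0.276 to 7.97% single), and 10 of the 12 clustered genes belong to the array. Without the array they do overlap (2 of 48 clustered genes, 0.509 to 14.3%). The differences were not tested. Counted as loci, the 149 genes formed 103, of which 15 had a summit of any library and 4 had summits of at least 2 libraries. With gaps of up to 500 kb there were 92 loci, of which 12 and 2 did, the 2 being the RNU1 genes and the array. The 14 genes with at least 2 libraries thus stand for 2 places in the genome.

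Copies that the table types as pseudogenes had few summits, as had pseudogenes of any kind. Of 2091 genes named RNU, RNVU or RN7SK and typed pseudogene, 9 had a summit of any library (0.430%, 0.197 to 0.815%). Pseudogenes of all kinds had 132 of 15048 (0.877%, 0.734 to 1.04%). The U6 pseudogenes had 2 of 1269, those of 7SK 1 of 292, those of U2 0 of 67 and those of U4 0 of 89. The U1 pseudogenes had 4 of 113 (3.54%, 0.973 to 8.82%), and 2 of them, both on chromosome 14, had a summit in every library. RNU1-27P had summits at 23, 46 and 6 bp in replicates 1, 2 and 3, scoring 8.44, 7.12 and 25.4. RNU1-28P had them at 75, 51 and 44 bp, scoring 5.48, 5.37 and 23.0. These values resemble those of RNU1-1 to RNU1-4 in distance and in the higher score of replicate 3, though scores are not comparable between lists. Both were singled out after their values had been seen. Of other gene types, tRNA genes had 60 of 429 with a summit (14.0%, 10.8 to 17.6%) and snoRNA genes 18 of 1190 (1.51%). Protein-coding genes had 15.3%, and genes of any type at most 500 bp long 2.27%. The any-library interval of all snRNA genes, 12.9 to 26.0%, includes the shares of tRNA and protein-coding genes. With at least 2 libraries these types had 3.50% and 3.23%, below the snRNA interval of 5.23 to 15.3%. That interval treats genes as independent, though its 14 snRNA genes share few loci. Counted as loci, 4 of 103 had summits of at least 2 libraries, or 2 of 92 with gaps of up to 500 kb. The other gene types were not counted as loci. The differences were not tested.

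The summits near snRNA genes had high scores for their list in replicate 3 and less so in the other libraries. Above the median score of their list were 24 of 30 in replicate 3, 9 of 14 in replicate 1 and 9 of 12 in replicate 2. The 30 distinct summits of replicate 3 near snRNA genes had a median score of 12.6 (3.92 to 66.3), against 5.58 in the whole list, and 13 of them were among its 100 highest. The 14 of replicate 1 had a median of 6.76 (4.36 to 18.3), against 6.12, and 0 were among its 100 highest, the best ranking 116. The 12 of replicate 2 had a median of 7.22 (4.28 to 29.9), against 5.57, with 1 among its 100 highest. Scores are not comparable between lists, and the snRNA summits are part of each list.

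**Figure D5:**
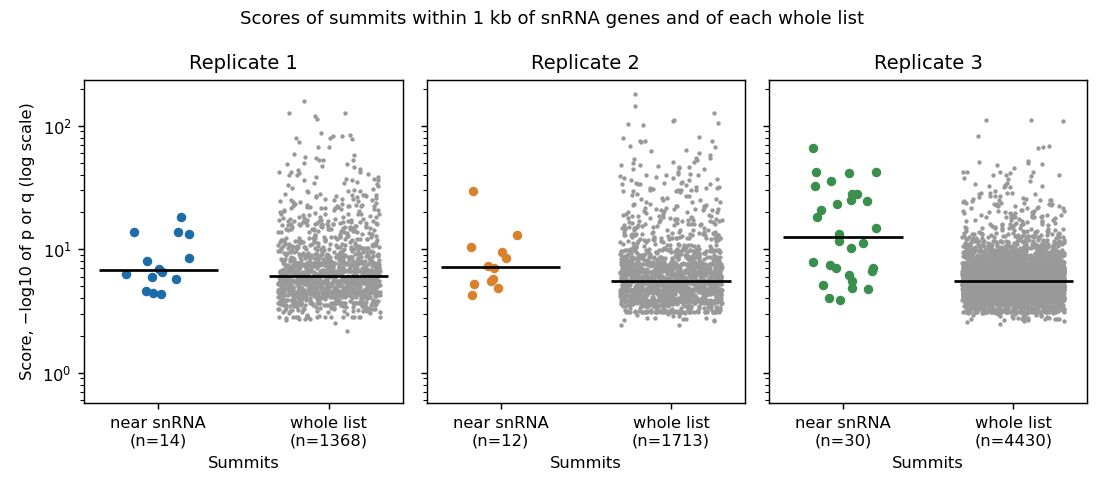
Score of each summit (−log10 of a p or q value, log scale) within 1 kb of an snRNA gene (coloured) and in the whole list (grey), for each library, with black lines at the medians. The medians near snRNA genes are 6.76, 7.22 and 12.6 in replicates 1 to 3, against 6.12, 5.57 and 5.58 in the whole lists.

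Other small RNA genes read by RNA polymerase II or III also carried SOX4 summits. A list of 20 such genes had 8 with a summit of any library (40.0%, 19.1 to 63.9%), against 7.41% of all genes. At least 2 libraries had summits at 7 of them, against 1.67% of all genes. The list was chosen with earlier results of these data known, so these shares are no independent comparison with all genes. The 5 genes of U3, a small nucleolar RNA needed to cut ribosomal RNA, made up most of these. They lie together on chromosome 17 and are not independent of each other, which the interval ignores. SNORD3A had summits at 92, 64 and 91 bp in replicates 1, 2 and 3, scoring 7.76, 6.87 and 26.9. SNORD3D had them at 223, 264 and 134 bp, scoring 20.8, 17.9 and 28.4. SNORD3B-2 had them at 97, 150 and 301 bp (scores 14.7, 15.0 and 25.0), and SNORD3B-1 at 69, 401 and 245 bp (scores 4.55, 3.82 and 14.6). SNORD3C was 44 and 38 bp from summits of replicates 2 and 3 (scores 6.21 and 13.3). RPPH1, the gene for the RNA of the enzyme that trims the leading end of transfer RNA, was 95 and 99 bp from summits of replicates 2 and 3, with low scores of 3.63 and 3.55. SNORD13, on chromosome 8, had them in replicates 1 and 3. The remaining gene of the 8, RN7SL2, had a summit in replicate 3 alone, at 39 bp (score 7.51). The Y RNA genes, the vault RNA genes, RMRP, the gene of the related enzyme RNase MRP, and SNORD118, the U8 gene, had none.

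Genes for proteins that make and use snRNAs carried scattered sites, most of them in replicate 3 alone. Any library held a summit at 15.3% of protein-coding genes, and at least 2 libraries did at 3.23%. The list of snRNA transcription factors had 6 of 20 in any library (30.0%, 11.9 to 54.3%) and 1 in at least 2. That gene was SNAPC3, a subunit of the complex that binds the proximal sequence element, with summits at 43, 194 and 262 bp in replicates 1, 2 and 3, scoring 5.83, 3.09 and 7.71. The Integrator complex, which cuts the ends of snRNA precursors, had 5 of 14 (35.7%, 12.8 to 64.9%) and 2 in at least 2 libraries. INTS13 had summits at 16, 51 and 265 bp, scoring 7.16, 7.04 and 7.88, and INTS9 had them at 137, 200 and 366 bp, scoring 4.64, 6.30 and 8.69. The snRNP proteins had 7 of 26 (26.9%, 11.6 to 47.8%), with LSM3, a subunit of the ring that binds U6, in replicates 1 and 3. Export, import and assembly genes had 3 of 14 (21.4%, 4.66 to 50.8%), with DDX20 of the SMN complex in replicates 1 and 3 and TGS1, the enzyme that modifies the snRNA cap, in replicates 2 and 3. The 7SK particle and P-TEFb had 1 of 7, HEXIM1 in replicate 3 at 80 bp with a score of 3.61. The intervals of all 5 protein lists include the share of all protein-coding genes.

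The promoter window of SNAPC3 (chr9:15422626-15422925, plus strand) is shown because summits of 2 libraries fall in it, that of replicate 2 at base 57 and that of replicate 1 at base 208. The replicate 3 summit lies just before its first base. It held AACAAT once, at base 49, and none of the other motifs.
SNAPC3: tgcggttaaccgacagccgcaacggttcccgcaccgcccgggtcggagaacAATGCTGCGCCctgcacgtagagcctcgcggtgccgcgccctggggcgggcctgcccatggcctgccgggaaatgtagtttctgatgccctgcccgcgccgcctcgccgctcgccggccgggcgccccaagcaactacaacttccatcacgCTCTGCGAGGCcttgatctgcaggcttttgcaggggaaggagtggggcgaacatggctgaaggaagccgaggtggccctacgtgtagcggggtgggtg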

How the data were processed

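Per the labels' protocols, SOX4 ChIP-seq libraries of BT549 cells were sequenced as paired reads, and the tools named are BWA, SAMtools and MACS2, without versions, per the submitters' processing notes. The authors deposited 1 list of 1 bp summits per library, not pooled, whose score column holds −log10 values. Whether these stand for a p-value or a q-value, and any control used in calling, is not given in the sources used here. The notes name hg19, but 41 of 54 contig names carry KI270 identifiers, which belong to GRCh38, so GRCh38 was used. Positions are 1-based.

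Genes came from the RefSeq table of GRCh38.p14. Rows with scaffold or alternate positions were left out (679 genes of all types). For each gene the distance from either end to the nearest summit of each library was computed with Python 3.11.15, pandas 2.3.3 and NumPy 2.4.6, and intervals with SciPy 1.17.1. The distance step was tested on simulated data. Families were read from symbols, with snaR added after the table was seen. All genes with summits of at least 2 libraries within 1 kb and a fixed set of family genes are named, as are up to 6 such genes per related list. Members and lists were chosen with earlier results of these data known. No test between conditions was possible with 1 group. The planned distance to a transcription start and the promoter motifs of snRNA genes were not run, because neither strand nor sequence of these genes was used here.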

Additional observations from a re-analysis of the deposited data

Results flagged for a closer look

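A signal appeared in summits that the comparisons with genes leave out, those on contigs outside the assembled chromosomes. LOC124905321 is one of the 5 snRNA genes that the table labels with a chromosome (1) but places on a scaffold, at 21861 to 22024 of a sequence it does not name. It is 164 bp long, the length of RNU1-1 to RNU1-4. All 3 libraries had a summit at that position on the same chromosome 1 contig, at bases 21968, 22049 and 21978 in replicates 1, 2 and 3. These lie 56, 25 and 46 bp from the listed gene ends. Their scores were 8.80, 8.24 and 49.4, and the last ranked 11 of the 4430 summits of replicate 3. The 3 lists held 7, 9 and 6 summits on contigs of chromosome 1 in all. The match is by position alone, the identity of the contig was not tested, and no control library was analysed here. The other 4 such genes had no summit at their listed positions on contigs of their chromosomes.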

How the results depend on the processing

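The count of 28 snRNA genes with a summit of any library was between 23 and 31 with distances of 200 bp to 10 kb, gene spans in place of ends, higher-scoring summits, equal list lengths and no chromosome 8. It was 14 to 28 when 1 library was left out, 16 for genes with a family name only, and 15 and 12 when counted as loci joined by gaps of 100 and 500 kb. The count of 14 genes with at least 2 libraries was 9 to 14 when 1 library was left out (9 without replicate 1 and 9 without replicate 3), 5 with family names only, and 4 and 2 as loci, and 13 where the summits also had to lie within 200 bp of each other. The count of 9 genes with all 3 libraries was 14 at 10 kb, 5 with summits at or above the median score, 4 with family names only, and 4 and 2 as loci. Leaving out the array, an alternative added after the data were seen, gave 15, 4 and 4 genes. Leaving out RNU1-1 to RNU1-4, also added, gave 5 genes with all 3 libraries and 6 U1 genes with any. The 10 U1 genes were 4 to 10 when 1 library was left out, the lowest without replicate 3. With family names only the array had 1 gene, RNU2-1, and 5 clustered genes had a summit, and without the array 4 did, against 17 with every gene kept. The 11 single genes were 7 with summits at or above the median score, 6 with equal list lengths, and 2 to 11 when 1 library was left out. The U6, U6atac and 7SK genes stayed at 0 in each alternative run. Among all genes the share with a summit was 3.59% at 200 bp and 11.9% at 10 kb, and 2.42% without replicate 3. No paired analysis was possible because the 3 libraries form 1 group. The distance to a transcription start was not run. Depth is unknown, so a site absent from a list may have been below its threshold.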
